A study of Mus musculus with 2 samples.

Results

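Myofibre-derived barcodes were 1123 of the 30891 cell barcodes in 2 single-cell libraries of mouse muscle, with 443 in the WT-labelled library and 680 in the KO-labelled library. A barcode counted as myofibre-derived when it had at least 500 detected genes, at most 10% of its UMIs (unique molecular identifiers, 1 per captured RNA molecule) from mitochondrially encoded genes, and at least 10% of its UMIs from Acta1, Ckm, Mylpf, Tnnc2, Tnnt3 and Myl1. It also had to hold no UMI of Cdh5 (endothelial cells), Ptprc (blood cells), Pdgfra (mesenchymal progenitors) or Pax7 (satellite cells). The members were thus chosen by the levels of these 10 genes and by the cap on mitochondrial UMIs, and those values are given only as a description. Whether such a barcode held a fibre fragment, a myonucleus with attached sarcoplasm or RNA released from broken fibres cannot be told apart in these data.

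The series concerns autocrine IGF-I, a growth factor, in the resident mesenchymal progenitors of skeletal muscle, also called fibro-adipogenic progenitors or FAPs. Each library pooled 10 TA muscles from 5 male mice of 1 strain, the genotypes being given as WT and KO with no allele, Cre driver or age in the labels used here, and both carrying ND muscle in their titles, which the labels do not spell out. Both pools were digested with Collagenase II and Dispase II for 1 h at 37 °C, passed through 40 µm strainers and freed of red cells, propidium iodide marked dead cells for removal, and libraries were made with the Chromium GEM-X 3′ kit, version 4, in a batch that the labels number alike. There was 1 library for each genotype, so no test between genotypes exists, library and genotype cannot be told apart, and every interval below covers counting error alone. The labels call the cells FAPs, whereas the myofibre-derived barcodes had no Pdgfra UMI by the rule and 1.30% and 4.65% of the summed FAP-marker level of the other kept barcodes in the libraries labelled WT and KO.

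Adult skeletal myofibres are long multinucleate cells that mincing and digestion break open, and intact fibres do not pass through a droplet device. Their contractile machinery is built from isoforms that differ between fibre types, and the myosin heavy chain names the type: Myh7 marks slow fibres, Myh2 fast IIA fibres, Myh1 fast IIX fibres and Myh4 fast IIB fibres. IIB fibres rely mainly on glycolysis and hold few mitochondria, and oxidative fibres hold more mitochondria and the oxygen-binding protein myoglobin. In atrophying muscle, FoxO transcription factors switch on ubiquitin ligases such as Trim63 (MuRF1) and Fbxo32 (atrogin-1), and IGF-I signalling through AKT holds these factors in check.

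The fast myosin genes lie side by side on chromosome 11, and the bases before the starts of Myh4 and Myh1 are shown because these genes split the barcodes into their types. Both windows come from RefSeq (GRCm38.p6), hold the 200 bases before the annotated start on the + strand, and are printed 5′ to 3′ with motif matches in capitals. They span chr11:67237612-67237811 for Myh4 and chr11:67199902-67200101 for Myh1.
Myh4: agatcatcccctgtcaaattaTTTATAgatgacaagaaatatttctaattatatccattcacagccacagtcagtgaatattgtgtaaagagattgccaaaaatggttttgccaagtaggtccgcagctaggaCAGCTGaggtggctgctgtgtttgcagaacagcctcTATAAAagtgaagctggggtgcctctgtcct
Myh1: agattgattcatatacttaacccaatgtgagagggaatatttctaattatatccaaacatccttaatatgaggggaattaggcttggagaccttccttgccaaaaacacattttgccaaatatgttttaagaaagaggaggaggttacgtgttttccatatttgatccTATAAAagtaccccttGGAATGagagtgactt
Searched on both strands were TATAAA, the E-box CANNTG, the MCAT element CATTCC and the MEF2 site, and no matches overlapped. Myh4 had TATAAA 31 bases before the start, a reverse-strand match 179 bases before it, and 1 E-box 67 bases before it. Myh1 had TATAAA 32 bases before its start and 1 reverse-strand MCAT match 16 bases before it, and neither window held a MEF2 match. Among 32851 windows of the same length 9.96% held TATAAA, 58.2% an E-box, 10.1% an MCAT element and 0.414% a MEF2 site. The longest run of bases that both windows share was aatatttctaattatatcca, 20 bases that start 163 bases before the Myh4 start and 165 before the Myh1 start, and 3 of the 32851 windows held it, those of Myh1, Myh2 and Myh4. These matches describe the letters and say nothing of binding.

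Of the barcodes with 500 genes and at most 10% mitochondrial UMIs, called kept barcodes below, 4.31% were myofibre-derived in the WT-labelled library (443 of 10272, exact Clopper-Pearson 95% interval 3.93% to 4.72%). In the KO-labelled library the share was 3.66% (680 of 18554, 3.40% to 3.95%). These intervals overlapped only from 3.93% to 3.95%, and an overlap does not tell whether counting error covers the difference. With at least 1000 detected genes the order of the libraries turned, to 1.16% and 1.68%. They held 965823 and 2067246 UMIs, with a median of 1843 and 2410 UMIs and 740 and 866 genes for each barcode, against 3029 and 4366 UMIs in the other kept barcodes. The libraries shared 61 barcode sequences, none of them of a myofibre-derived barcode.

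The 6 muscle genes of the rule took a median of 17.4% (WT) and 17.8% (KO) of a barcode's UMIs, at most 27.7% and 25.9%. In other kept barcodes the median was 0.0206% and 0.0269%. Few barcodes lay near the limit of 10%: between 5% and 10% there were 23 and 40. The 3 nearest above it had 10.1%, 10.2% and 10.3% in the WT-labelled library and 10.0%, 10.0% and 10.3% in the KO-labelled library. The 3 nearest below it had 9.59%, 9.51% and 9.44%, and 9.96%, 9.91% and 9.90%. A further 20 and 49 kept barcodes reached the 10% but held a UMI of Cdh5, Ptprc, Pdgfra or Pax7. These, and the barcodes between 5% and 10%, are part of the other kept barcodes, whose highest shares were 20.7% and 27.4%. Levels of fibre genes in the other kept barcodes include theirs.

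**Figure D1:**
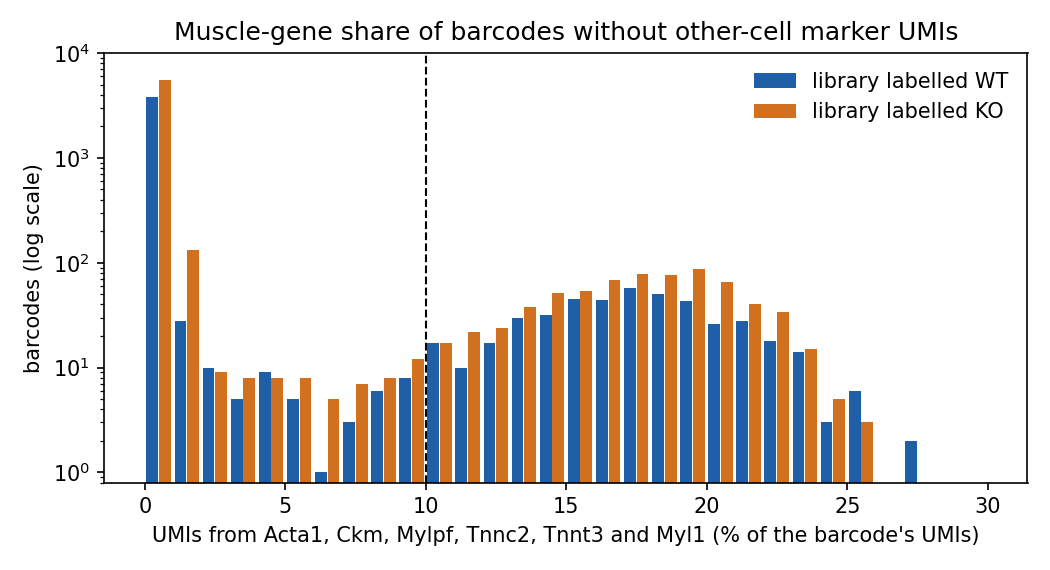
Number of kept barcodes without a Cdh5, Ptprc, Pdgfra or Pax7 UMI (vertical axis, log scale) by the percent of their UMIs from the 6 muscle genes (horizontal axis, bins of 1%), for the libraries labelled WT (blue) and KO (orange); the dashed line is the limit of 10%. Only 23 and 40 barcodes lie between 5% and 10%, and the myofibre-derived ones have medians of 17.4% and 17.8%.

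Acta1, Ckm, Mylpf and Tnnt3, the markers that define muscle fibres, had a UMI in every myofibre-derived barcode, as the rule makes likely, and markers of other cell types were low in them. The summed level of 9 endothelial markers was 72.5 CPM (UMIs of the gene per 1000000 UMIs of the summed barcodes) in the WT-labelled library and 278 CPM in the KO-labelled library, against 5161 and 9748 CPM in the other kept barcodes. The 9 FAP markers summed to 188 and 305 CPM against 14549 and 6560 CPM, and the 8 macrophage markers to 9.32 and 17.9 CPM against 862 and 808 CPM. The 5 erythroid genes summed to 7.25 and 154 CPM against 448 and 1156 CPM. The sums of all 4 lists were higher in the KO-labelled library, but not every gene was. Of the FAP markers, Dcn, Col1a1, Gsn and Apod were higher there and Col3a1, Lum, Dpt and Smoc2 lower. Single barcodes of that library held 45.3% of the Dcn, 53.5% of the Col1a1 and 27.6% of the Gsn UMIs. Mural markers summed to 107 and 185 CPM against 3419 and 3786 CPM, and tenocyte markers to 138 and 225 CPM against 2324 and 1195 CPM. In the KO-labelled library single barcodes held 74.4% of the UMIs of the tenocyte marker Fmod and 28.2% of those of Thbs4. T cell, B cell and neutrophil markers were nearly absent, at 1.04 and 0.967 CPM, 1.04 and 0.967 CPM, and 1.04 and 20.3 CPM. Beside the genes of the rule, the complement gene C1qc, the T cell genes Cd3d, Cd3g and Trac, and the pericyte gene Higd1b had no UMI in either library.

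Satellite cell markers summed to 30.03 and 41.6 CPM, with Pax7 and Calcr at 0 in both libraries. Myod1 made most of this, at 25.9 and 24.7 CPM. In the other direction, muscle RNA was found in barcodes of cells that should lack it. Acta1 had a UMI in 20.6% and 32.4% of endothelial barcodes (at least 2 Cdh5 UMIs, median 2779 and 4963 UMIs), where its level was 178 and 201 CPM, and in 100% of the myofibre-derived ones at 42152 and 43204 CPM.

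Fast-fibre transcripts filled the myofibre-derived barcodes of both libraries. The most abundant was Tpm1, the tropomyosin that holds the thin filament closed at rest, with 44724 CPM in the WT-labelled library and 58020 CPM in the KO-labelled library. A 3′ library counts molecules, so the levels were not divided by transcript length. The 20 most abundant genes took 36.9% and 38.1% of all UMIs, against 9.36% and 8.42% for the 20 most abundant genes of the other kept barcodes. The list of 16 fast contractile genes alone took 21.9% and 23.4%, although 4 of the 6 genes of the rule are on it.

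Among genes that the rule did not use, the glycolytic enzyme Aldoa stood at 17971 and 18047 CPM, the fast troponin Tnni2 at 15526 and 16033 CPM and the calcium buffer Pvalb, parvalbumin, at 14573 and 14983 CPM. The libraries lay close together in these 3 genes, with log2 ratios of 0.01, 0.05 and 0.04. Atp2a1, the SERCA1 pump that returns calcium to the sarcoplasmic reticulum in fast fibres, was at 6382 CPM in the WT-labelled library and 10646 CPM in the KO-labelled library, a log2 ratio of 0.74 (exact conditional binomial 95% interval 0.70 to 0.78). The 26 genes of glycolysis and glycogen summed to 5.70% and 5.93% of UMIs. The 75 nuclear genes of the respiratory chain summed to 6.08% and 4.58%, against 0.798% and 0.664% in the other kept barcodes.

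Cmss1 and Camk1d, chosen after their values were seen, ranked among these muscle genes with 20423 and 18374 CPM, and 10549 and 7964 CPM. Neither is a muscle structural gene, and both were also abundant in the other kept barcodes, Cmss1 at 7064 and 4869 CPM and Camk1d at 5975 and 3324 CPM. What these reads come from was not tested.

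**Figure D2:**
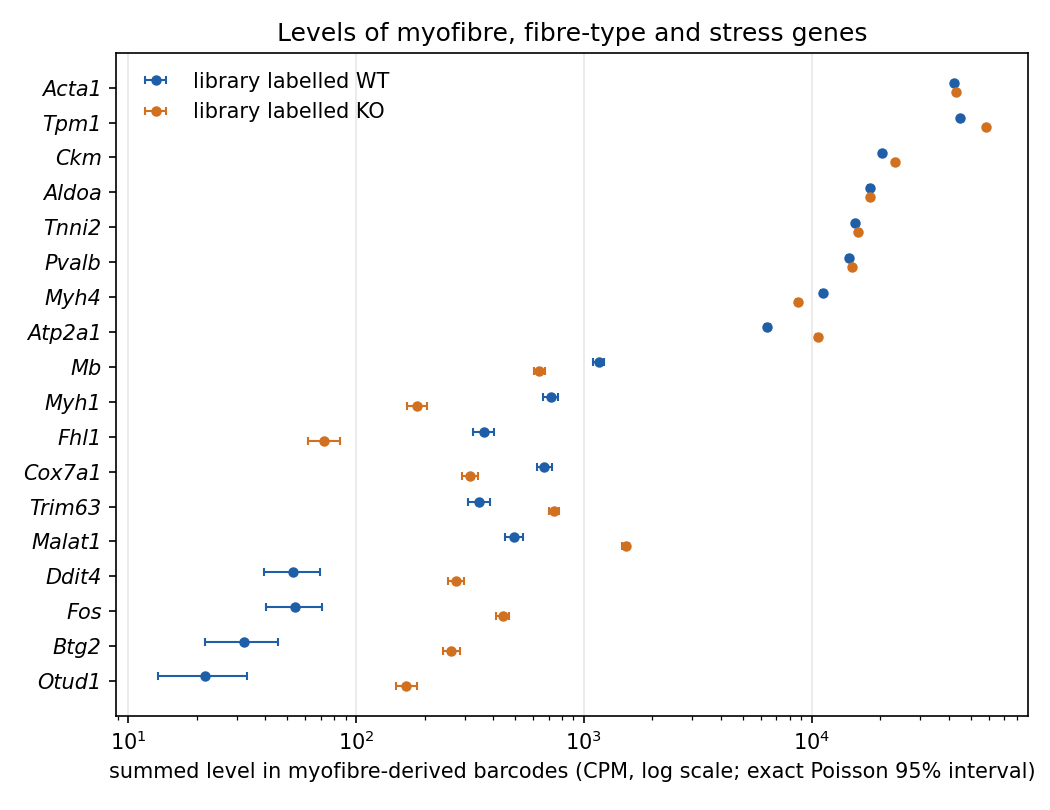
Summed level in myofibre-derived barcodes (horizontal axis, CPM, log scale) of 18 genes in the libraries labelled WT (blue) and KO (orange), with exact Poisson 95% intervals as bars. Contractile and glycolytic genes such as Acta1 (42152 and 43204 CPM) lie close together, whereas Myh1 and Fhl1 are lower and Fos, Btg2, Otud1 and Ddit4 higher in the KO-labelled library.

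Nearly all myosin heavy chain UMIs were Myh4, the IIB isoform. Of the UMIs of Myh1, Myh2, Myh4 and Myh7 together, Myh4 made 93.8% in the WT-labelled library (10808 of 11517) and 97.9% in the KO-labelled library (18002 of 18388). Myh1, the IIX isoform, made 6.01% (692 UMIs) and 2.08% (383 UMIs), and Myh2, the IIA isoform, was counted 17 and 3 times. All deposited barcodes together held 70 and 55 Myh2 UMIs. Myh2 made 0.148% and 0.0163% of the myosin UMIs here, against 1.02% and 0.547% in the other kept barcodes. The make-up given is thus that of the barcodes the rule selects. No Myh7 UMI was found in a myofibre-derived barcode, which allows a level of up to 3.11 and 1.45 CPM, and all 30891 barcodes together held 3 and 2. The myosin genes are close paralogs, and the sources used here do not say how reads that match several of them were counted.

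To type single barcodes, those with at least 5 UMIs of the 4 genes were given the isoform that made at least 80% of them, which left 393 and 544 typed barcodes. Myh4 was the type of 349 (88.8%, 95% interval 85.3% to 91.7%) in the WT-labelled library and of 527 (96.9%, 95.04% to 98.2%) in the KO-labelled library. Myh1 was the type of 17 (4.33%) and 8 (1.47%), and 27 (6.87%) and 9 (1.65%) were mixed. None was typed Myh2 or Myh7, which allows shares of up to 0.934% and 0.676%. The type is a range cut from a share: 26 and 8 barcodes had a leading isoform at 70% to 90%. Most barcodes were pure, with 316 and 492 holding Myh4 alone.

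The lower Myh1 share in the KO-labelled library was also seen in the muscle RNA of other barcodes. In the other kept barcodes Myh1 made 12.4% (WT) and 7.30% (KO) of the myosin UMIs, in endothelial barcodes 12.7% and 8.79%. How many fibres the 17 and 8 Myh1-typed barcodes came from cannot be told from the data. The rule also bears on it: Myh1-typed barcodes had a median of 13.2% and 13.6% of UMIs from the 6 muscle genes, nearer the limit than the 17.8% and 17.6% of Myh4-typed ones.

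Other genes followed the myosin type in the same direction in both libraries. Of 74 nuclear respiratory chain genes, 68 had higher levels in Myh1-typed than in Myh4-typed barcodes in each library and none lower in both, with a median log2 ratio of 0.76 (WT) and 1.00 (KO). Over all 992 genes with at least 100 UMIs in each library the medians were 0.06 and 0.04, with 325 higher and 267 lower in both. All 13 fast contractile genes other than Myh1, Myh2 and Myh4 were lower in Myh1-typed barcodes in both libraries, 4 of them genes of the rule. Glycolysis was divided, with 5 genes higher and 11 lower of 25, and of 24 calcium-handling genes 2 were higher and 11 lower.

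Mb, myoglobin, had 6597 CPM in the Myh1-typed and 709 CPM in the Myh4-typed barcodes of the WT-labelled library, a log2 ratio of 3.22 (95% interval 2.98 to 3.45). In the KO-labelled library it had 9905 and 542 CPM, a log2 ratio of 4.19 (3.96 to 4.42). The Z-disc actinin Actn2 was higher by 2.10 and 3.69, the mitochondrial creatine kinase Ckmt2 by 2.05 and 2.57, and the fatty acid carrier Fabp3 by 1.25 and 2.59 on the log2 scale. Actn2 had only 12 and 15 UMIs in Myh1-typed barcodes. Lower in Myh1-typed barcodes were the fast actinin Actn3, at -1.86 and -1.53, Pvalb at -1.24 and -1.90, and the fast myosin-binding protein Mybpc2 at -1.27 and -1.16. Mrln, the SERCA inhibitor myoregulin, had ratios of -1.68 and -1.70 from only 2 and 1 UMIs in Myh1-typed barcodes, and both intervals include 0.

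Fhl1, a LIM-domain protein, was chosen after its values were seen and ranked highest of the 992 genes by the smaller of its 2 ratios. The log2 ratio was 3.93 in the WT-labelled library (2724 against 179 CPM) and 4.14 in the KO-labelled library (1078 against 61.3 CPM). Amd1, an enzyme of polyamine synthesis chosen in the same way, was lower in Myh1-typed barcodes at -2.66 (-4.29 to -1.43) and -3.13 (-6.17 to -1.27). These ratios rest on only 5 and 2 UMIs in Myh1-typed barcodes.

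**Figure D3:**
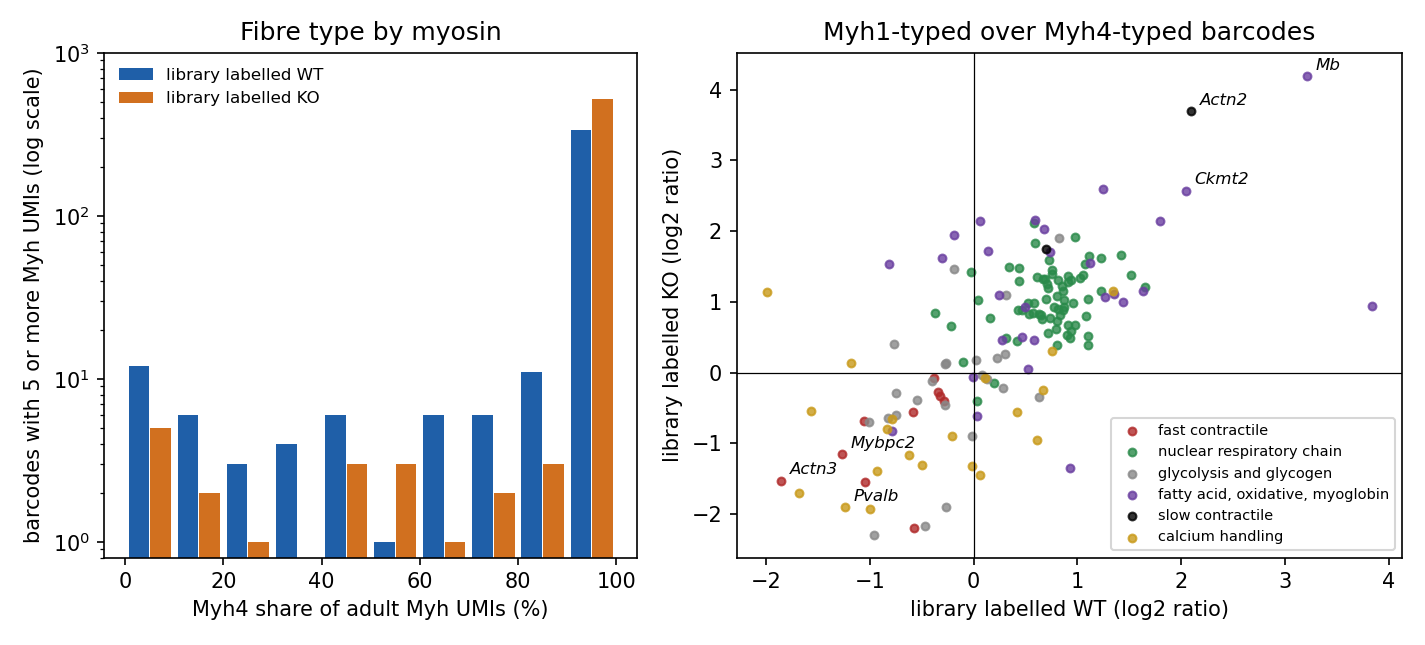
Left, number of barcodes with at least 5 myosin UMIs (vertical axis, log scale) by the percent of those UMIs from Myh4 (horizontal axis, bins of 10%), for the libraries labelled WT (blue) and KO (orange). Right, log2 ratio of each list gene in Myh1-typed over Myh4-typed barcodes in the WT-labelled library (horizontal axis) and KO (vertical axis), coloured by list: respiratory chain genes lie above 0 in both (68 of 74) and fast contractile genes below 0 in both (13 of 13).

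Mitochondrially encoded RNA was scarce in the myofibre-derived barcodes. These 13 genes encode core subunits of the respiratory complexes, and they made 0.0961% of summed UMIs in the WT-labelled library and 0.127% in the KO-labelled library, against 1.66% and 1.27% in the other kept barcodes. No mitochondrial UMI at all was found in 298 barcodes (67.3%, 95% interval 62.7% to 71.6%) and 321 barcodes (47.2%, 43.4% to 51.0%), against 1.83% and 1.68% of the other kept barcodes. The cap of 10% removed no barcode, and the highest shares were 8.45% and 8.19%.

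With every barcode thinned to 1000 UMIs (5 and 3 shallower ones left out), 24.7% and 31.2% held a mitochondrial UMI. The summed share leaned on few barcodes: without the 8 and 21 that had over 1%, it was 0.0578% and 0.0633%. mt-Co1, a subunit of cytochrome oxidase, had 119 and 194 CPM in the myofibre-derived barcodes against 3119 and 2347 CPM in the others. mt-Atp6, a subunit of ATP synthase, had 135 and 183 CPM against 2494 and 2072 CPM.

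Between the libraries, 8 of the 13 genes had enough UMIs to be compared, and all 8 had log2 ratios above 0, with a median of 0.38. Of the 5 below the floor, mt-Nd3 (-0.59), mt-Nd4l (-0.38) and mt-Atp8 (-0.35) lay below 0 and mt-Nd5 (0.10) and mt-Nd6 (0.38) above, all with intervals that include 0. In the other kept barcodes all 13 genes lay below 0, the same 8 between -0.49 (mt-Cytb) and -0.19 (mt-Nd1). The log2 ratio of mt-Co1 was 0.70 (0.41 to 1.02), that of mt-Co3 0.59 (0.27 to 0.93) and that of mt-Nd4 0.53 (0.22 to 0.85). None reached 2-fold.

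**Figure D4:**
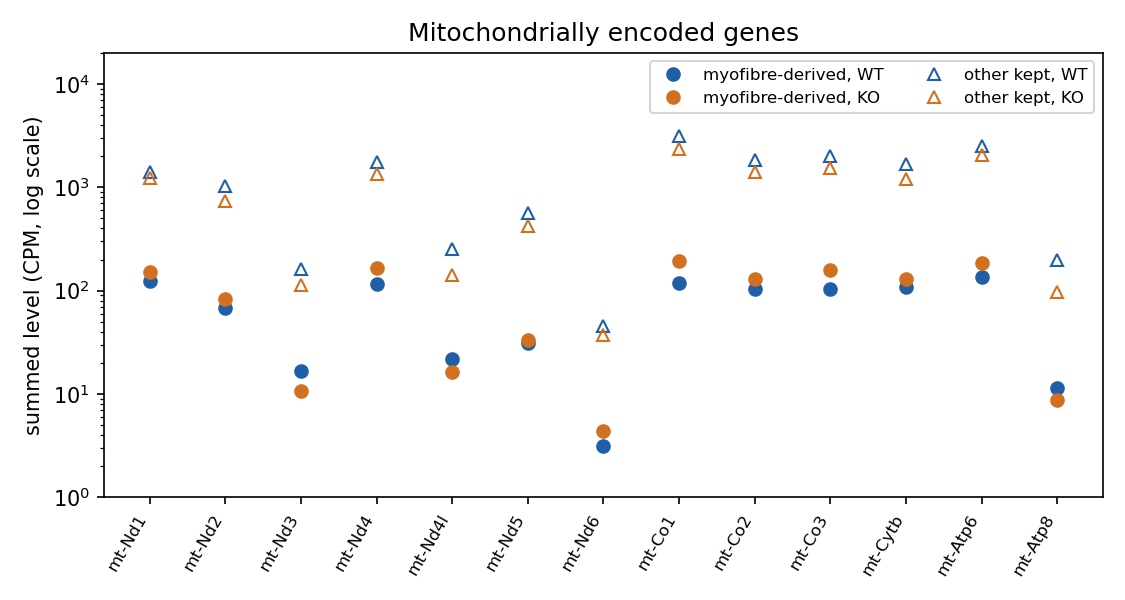
Summed level (vertical axis, CPM, log scale) of the 13 mitochondrially encoded genes (horizontal axis) in myofibre-derived barcodes (filled circles) and in the other kept barcodes (open triangles) of the libraries labelled WT (blue) and KO (orange). Every gene is lower in the myofibre-derived barcodes, mt-Co1 at 119 and 194 CPM against 3119 and 2347 CPM.

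Across all genes, few differed by 2-fold between the myofibre-derived barcodes of the libraries. Of the gene lists, dissociation stress genes had the highest median among lists with more than 1 gene compared, and 70 of 74 nuclear respiratory chain genes lay below 0. Over all 2980 genes compared, 1524 lay below 0. Of 2980 genes that reached 20 CPM in either library and 100 UMIs in all, 74 (2.48%) were at least 2-fold higher in the KO-labelled library and 11 (0.369%) at least 2-fold lower. The floor of 100 UMIs does not treat both directions alike. The KO-labelled library held 2067246 of these UMIs against 965823, so a gene higher there passes at a lower CPM. The part of this in the 74 and 11 was not tested. The median log2 ratio, computed with a pseudocount of 1 CPM, was -0.01. With 1 library each, 2-fold is a size and not a test.

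Otud1, a deubiquitinase, had the largest log2 ratio under the naming rule, 2.88 (2.30 to 3.65), from 21.7 CPM to 166 CPM. It was at 40.1 and 44.7 CPM in the other kept barcodes. Thinning each barcode to 1000 UMIs brought its log2 ratio to 1.96. Ddit4, an inhibitor of mTORC1 induced by stress and glucocorticoids, had 52.8 and 276 CPM, a log2 ratio of 2.36 (1.97 to 2.83), and in the KO-labelled library it exceeded the 171 CPM of the other kept barcodes.

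The kinase Pim1 had a log2 ratio of 2.20 (18.6 and 89.5 CPM), and the transcription factor Cebpd one of 1.77 (69.4 and 239 CPM). The co-repressor Irf2bp2 followed with 1.63 (33.1 and 104 CPM), the transcription factor Nfil3 with 1.498 (48.7 and 139 CPM) and the orphan nuclear receptor Nr4a1 with 1.40 (85.9 and 229 CPM). All of these lay higher in the other kept barcodes of the WT-labelled library than in its myofibre-derived ones. There the log2 ratio was 0.61 for Ddit4, 0.15 for Otud1, 0.12 for Pim1, -0.28 for Cebpd and 0.03 for Nr4a1. Cebpd stood at 1199 CPM in the other kept barcodes of the WT-labelled library and 986 CPM in those of the KO-labelled one, and Dusp1, below, at 493 and 681 CPM. The naming rule left out genes over 5 times higher in the other kept barcodes of the library where they were higher, so both passed it through the KO-labelled library alone. With a muscle-gene share of at least 20%, Irf2bp2 (0.57), Nr4a1 (0.81) and Slc25a25 (0.74), a carrier described below, were under 2-fold.

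Sspn, sarcospan of the dystrophin complex, had 43.5 and 117 CPM (log2 ratio 1.41, 0.95 to 1.94), and the phosphatase Dusp1 61.1 and 154 CPM (1.32). The nuclear pore protein Tpr had 66.3 and 165 CPM (1.30), and the mitochondrial carrier Slc25a25 85.9 and 183 CPM (1.08). The log2 ratio of Sspn was 0.88 when barcodes from 200 genes were let in. Nr4a1 and Slc25a25 came under 2-fold when barcodes were thinned to 1000 UMIs, with log2 ratios of 0.97 and 0.87.

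Of 18 dissociation stress genes with enough UMIs, of 29 on the list, 12 were at least 2-fold higher in the KO-labelled library, against 2.48% of all genes compared, and none lower. Hspa1a, counted among the 12 at 8.28 and 46.9 CPM, reached the floor of 20 CPM only in the KO-labelled library. The median log2 ratio of the 18 genes was 1.38, against -0.01 for all genes compared and 0.12 for the list in the other kept barcodes. Fos, a subunit of the AP-1 factor, had 53.8 and 440 CPM (log2 ratio 3.01, 2.63 to 3.46), and Btg2, an antiproliferative early gene, 32.1 and 262 CPM (2.99). Atf3, a stress-induced repressor, had 20.7 and 121 CPM (2.49). A Fos UMI was found in 9.03% and 45.1% of barcodes, and in 5.25% and 25.4% after thinning to 1000 UMIs.

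These genes were far more abundant in the other kept barcodes, where Fos stood at 3746 and 3781 CPM. The myofibre-derived level of Fos was 1.44% (WT) and 11.6% (KO) of that level. The same percentage was 1.40% and 2.85% for the endothelial markers, 1.30% and 4.65% for the FAP markers, 1.62% and 13.3% for the erythroid genes and 1.55% and 5.39% for Malat1, a nuclear RNA. For the FAP markers, the myofibre-derived levels were 188 and 305 CPM, and those of the other kept barcodes 14549 and 6560 CPM. In the KO-labelled library 1 barcode held 45.3% of the myofibre-derived UMIs of Dcn, the most abundant FAP marker there. Of all 74 genes at least 2-fold higher, 58 were at or below the level of the other kept barcodes and 43 were over 5 times higher there. The part of RNA from other cells in these differences was not tested.

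Malat1, chosen after its values were seen, had a UMI in 50.3% and 74.3% of myofibre-derived barcodes, and its level was 494 and 1525 CPM (log2 ratio 1.62). In the other kept barcodes it stood at 31943 and 28275 CPM, with a UMI in 99.1% and 99.2%. Barcodes without a Malat1 UMI numbered 220 and 175. In these Fos had 44.4 and 400 CPM, Btg2 29.6 and 287 CPM and Ddit4 67.6 and 275 CPM. Jun, a partner of Fos, had 163 and 304 CPM there, under 2-fold, against 176 and 396 CPM over all myofibre-derived barcodes (1.16). In this smaller set, added after seeing the data, 12 genes were at least 2-fold higher in place of 74. The floors were applied again there, so fewer genes were compared, and the 2 counts do not share a denominator.

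Among the atrophy and FoxO targets, 6 of 23 genes with enough UMIs were at least 2-fold higher, against 2.48% of all genes compared, and none lower. The 6 were Trim63, Foxo1, Cdkn1a, Mt1, Mt2 and Ddit4, described above. Mt2, at 17.6 and 96.3 CPM, reached the floor of 20 CPM only in the KO-labelled library, so its place in the count is no support. The median log2 ratio of the 23 genes was 0.39, against -0.01 for all genes. Of the 23 genes, 17 lay above and 6 below 0, against 1456 and 1524 of all 2980 genes compared. Trim63, the muscle ubiquitin ligase MuRF1, had 348 CPM in the WT-labelled library and 743 CPM in the KO-labelled library, a log2 ratio of 1.09 (0.92 to 1.27). In the other kept barcodes, which include 20 and 49 with at least 10% muscle-gene UMIs, it was at 1.74 and 6.29 CPM (1.41). Among barcodes without a Malat1 UMI its log2 ratio was 0.91, under 2-fold.

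Foxo1 itself had 23.8 and 65.8 CPM (1.43), the cell cycle inhibitor Cdkn1a 25.9 and 61.4 CPM (1.22), and the metallothioneins Mt1 and Mt2 54.9 and 215 CPM (1.95) and 17.6 and 96.3 CPM (2.39). The other muscle ligase, Fbxo32, stood at 590 and 834 CPM, with a log2 ratio of 0.50 (0.36 to 0.64). Txnip, which restrains glucose uptake, was lower at 515 and 325 CPM (-0.66). The metallothioneins were far higher in the other kept barcodes, Mt1 at 2161 and 1557 CPM and Mt2 at 1033 and 1312 CPM. The part of RNA from other cells in their ratios was not tested.

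The dystrophin complex and costamere list had 2 of 16 genes at least 2-fold higher (2.48% of all genes were), Sspn and Lama2, and a median log2 ratio of 0.36, against -0.01 for all genes. The laminin chain Lama2 (22.8 and 61.0 CPM, 1.38) is also abundant in the other kept barcodes at 1047 and 632 CPM. Dystroglycan, Dag1, had 23.8 and 47.9 CPM (0.98) and alpha-sarcoglycan, Sgca, 69.4 and 115 CPM (0.72). Of 6 unfolded protein and integrated stress genes, Hspa5, the chaperone BiP, was the only one past 2-fold (31.1 and 115 CPM, 1.86). No interferon response gene of 34 had enough UMIs in these barcodes.

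Of the genes lower in the KO-labelled library, Fhl1, Myh1, Hspb7 and Mettl21c had the smallest log2 ratios under the naming rule. Fhl1 had 363 and 72.6 CPM, a log2 ratio of -2.31 (-2.61 to -2.04). Myh1 had 716 and 185 CPM (-1.95, -2.14 to -1.77), the small heat shock protein Hspb7 125 and 50.3 CPM (-1.30) and Mb 1161 and 637 CPM (-0.86). Within Myh4-typed barcodes, a comparison added after seeing the data, these ratios were nearer 0, at -1.53 for Fhl1, -0.63 for Myh1, -0.41 for Hspb7 and -0.39 for Mb. With a muscle-gene share of at least 20% Hspb7 turned to 0.51 and Myh1 was at -3.86.

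Mettl21c, a muscle lysine methyltransferase, had 133 and 59.98 CPM (-1.13) and -1.14 in Myh4-typed barcodes. Cox7a1, the muscle isoform of a cytochrome oxidase subunit, had 671 and 317 CPM (-1.08), and -1.05 in Myh4-typed barcodes. Its partner Cox8b had 1640 and 821 CPM, just short of 2-fold at -0.997. The assembly factor Cox20 had 103 and 49.8 CPM (-1.04). Atp5mpl and Atp5md, small subunits of ATP synthase, had -0.99 and -0.91. Of the 14 genes with enough UMIs on the list of oxidative genes without contractile isoforms, Hspb7 and Cox7a1 were 2-fold lower and none higher, with a median of -0.39. Of all genes compared, 0.369% were at least 2-fold lower and 2.48% higher.

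Across the nuclear respiratory chain, 70 of 74 genes had log2 ratios below 0, against 1524 of all 2980 genes compared. The median of the list was -0.35. Of its genes 1, Cox7a1, was at least 2-fold lower, against 0.369% of all genes compared. The other kept barcodes showed a median of -0.27 for this list, and Cox7a1 stood at 7.96 and 3.82 CPM there (-0.89). Cytosolic ribosomal protein genes had 75 of 80 below 0 and a median of -0.27, against -0.31 in the other kept barcodes. Short transcripts as a class were lower: the median over 136 genes under 800 bases was -0.32, and over 412 genes of at least 6000 bases 0.10. In the other kept barcodes these medians were -0.28 and 0.02, and the part of transcript length in the respiratory chain values was not tested.

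Of 15 fast contractile genes with enough UMIs only Myh1 was 2-fold apart, and the median was 0.15. Myh4 had 11190 and 8708 CPM (-0.36, -0.40 to -0.33), and Casq1, the calcium store protein calsequestrin, 611 and 921 CPM (0.59). Of 30 thin filament, Z-disc and titin genes 1 was 2-fold higher, Xirp1 with 20.7 and 43.5 CPM (1.04). Of all genes compared, 2.48% were at least 2-fold higher and 0.369% lower. Ttn, the giant spring protein titin, had 4103 and 4089 CPM.

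None of 25 calcium-handling genes (median 0.25), 26 glycolysis and glycogen genes (0.06), 6 phosphocreatine genes (0.11), 21 fatty acid genes (0.03) or 12 myogenic regulators (0.03) was 2-fold apart. The largest in these lists were Hrc, a calcium-binding protein of the sarcoplasmic reticulum, with 124 and 222 CPM (0.83), and Ppp1r3c, a glycogen-targeting subunit of protein phosphatase, with 421 and 733 CPM (0.80). Of 15 slow contractile genes 2 were above the floor, Actn2 at 121 and 73.5 CPM and Mybpc1 at 869 and 834 CPM. Neonatal Myh8 was counted once and 5 times and embryonic Myh3 never. Of 14 junction genes only Rapsn, which clusters acetylcholine receptors, had enough UMIs, at 34.2 and 32.9 CPM.

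IGF signalling genes were low in these barcodes, with 8 of 22 above the floor and none of these 8 at least 2-fold apart (median 0.07). Igf1 itself was counted 6 times in each library, 6.21 CPM (exact Poisson 95% interval 2.28 to 13.5) and 2.90 CPM (1.07 to 6.32). In the KO-labelled library 5 of the 6 UMIs, 83.3%, came from 1 barcode. The level in Pdgfra barcodes, the cells that the series' title concerns, was 400 CPM in the WT-labelled library and 404 CPM in the KO-labelled library, so this check did not separate the genotypes, and which part of the gene the KO allele removes is not given in the labels. Irs1, an adaptor of the insulin and IGF receptors, had 39.3 and 46.9 CPM, and the receptor Igf1r 12.4 and 17.9 CPM. The related adaptor Irs2 was below the floor with 14 and 76 UMIs. It had 14.5 and 36.8 CPM, a log2 ratio of 1.29 (0.51 to 2.28), against 122 and 113 CPM in the other kept barcodes.

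**Figure D5:**
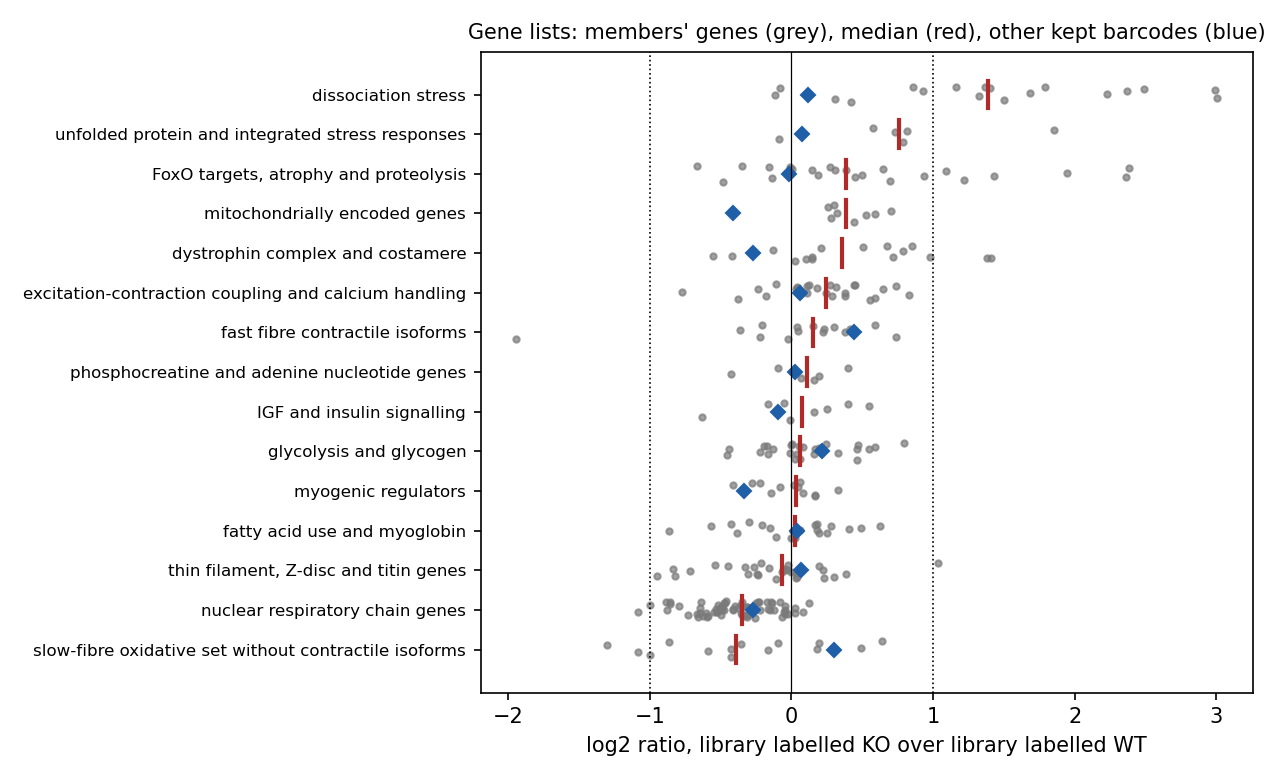
Log2 ratio of the KO-labelled library over the WT-labelled library (horizontal axis) for each gene with enough UMIs in myofibre-derived barcodes (grey points), by gene list (vertical axis), with the list's median there (red bar) and in the other kept barcodes (blue diamond); dotted lines mark 2-fold. Dissociation stress genes have a median of 1.38 and nuclear respiratory chain genes one of -0.35.

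Among themselves the myofibre-derived barcodes varied little in the 6 genes of the rule, and far more in some other contractile genes, Myh4 and Ttn among them. The variance between barcodes beyond that of counting, scaled to depth and divided by the squared mean, lay between 0.0413 and 0.0831 for the 6 genes of the rule, which the rule itself narrows, and had a median of 0.14 (WT) and 0.20 (KO) over the genes with at least 500 UMIs. It was 2.43 and 4.998 for Mb, 2.72 and 1.30 for Myh4, 2.29 and 1.44 for Ttn and 1.17 and 1.76 for Cryab, a small heat shock protein. Mb followed the myosin type described above. In the KO-labelled library alone, Malat1 (28.2), Fos (8.23), Jun (7.59) and Hspb1 (4.77) also passed 500 UMIs, and the former 3 varied more than Mb did there. In that library 1 barcode held 20.2% of the Malat1 UMIs and 11.6% of the Fos UMIs came from 1 barcode.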

How the data were processed

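Both libraries were deposited as counts, raw UMI counts for each gene and barcode without normalisation, made by the authors with Cell Ranger 9.0.0 and build mm10 per the submitters' processing notes. Per the file headers the version was 8.0.0 for WT and 9.0.0 for KO. How reads that match several genes were counted is not given in the sources used here. The members and gene lists were chosen with earlier results of these data known. Counts were summed over the barcodes of a set in each library and scaled to CPM, and log2 ratios (KO over WT) were taken after adding 1 CPM, with exact conditional binomial intervals from the counts without it. Shares have Clopper-Pearson and levels Poisson intervals at 95%. Intervals and limits for a count of 0 (3 counts) cover counting error only.

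A gene entered the comparison with 20 CPM or more in either library and 100 UMIs or more in all. Named genes were those of the rule, the adult myosins, the mitochondrial genes, the 12 largest and 12 smallest ratios at 50 CPM and 200 UMIs (without ribosomal, haemoglobin, predicted and mitochondrial genes, genes over 5 times higher in the other kept barcodes of the library where the gene was higher, and genes with over 20% of UMIs in 1 barcode), up to 4 genes of each list, up to 8 genes of the fibre-type comparison and the 2 most abundant markers of each other cell type. The fibre-type rule was written for Myh2-typed barcodes; none existed, so Myh1-typed ones were used, a choice made after seeing the data. Doublets were not removed: Scrublet (scanpy 1.11.5) marked 140 kept barcodes (1.36%) in the WT-labelled library, 1 of them myofibre-derived, and 2 (0.0108%) in the KO-labelled library, too few to be a working call. Endothelial barcodes had at least 2 Cdh5 UMIs, progenitor barcodes at least 2 Pdgfra UMIs and satellite barcodes a Pax7 UMI, each without a UMI of the other markers. Alternatives changed the limits of the rule, depth, scaling, floor, pseudocount and weighting. Computations used Python 3.11.15, numpy 2.4.6, scipy 1.17.1 and pandas 2.3.3, and the ratios and intervals were tested on simulated data.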

Additional observations from a re-analysis of the deposited data

Results flagged for a closer look

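Barcodes with under 500 detected genes were outside the comparisons, and 459 of them in the WT-labelled library and 344 in the KO-labelled library met every other part of the rule, 50.9% and 33.6% of all barcodes that did so. They had a median of 764 and 802 UMIs, a median of 17.4% and 16.8% of UMIs from the 6 muscle genes, a median mitochondrial share of 0 in both, and a myosin make-up of 92.4% and 98.99% Myh4. Letting in barcodes from 200 genes moved the myofibre-derived share to 8.01% and 5.28%.

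For the 3 measures below, the libraries differed in opposite directions in the myofibre-derived and in the other kept barcodes. Other genes did so too, Cebpd among them (1.77 and -0.28). Of the 74 genes at least 2-fold higher in the KO-labelled library, 49 had the same direction in the other kept barcodes. These differences were not tested because there is 1 library for each genotype. The mitochondrial percent of summed UMIs was 0.0309 percentage points higher in the KO-labelled library among myofibre-derived barcodes and differed by -0.390 percentage points among the others. The former rests on few barcodes: without the 8 and 21 that had over 1% mitochondrial UMIs, the shares were 0.0578% (WT) and 0.0633% (KO). The log2 ratio of Sspn was 1.41 in the former and -0.50 in the latter. That of Lama2 was 1.38 and -0.73.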

How the results depend on the processing

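Each count and ratio was recomputed under alternatives to the limits, depth, scaling and floors, and 4 sets of barcodes were added after seeing the data. The 74 genes at least 2-fold higher became 18 with a muscle-gene share of at least 20%, 38 without UMIs of 5 more other-cell markers, 28 after thinning to 1000 UMIs, 26 with a floor of 100 CPM, and, in the added sets, 12 without a Malat1 UMI and 31 with 1000 to 3000 UMIs. The 11 genes at least 2-fold lower became 4 at 20%, 5 after thinning, 7 with the floor of 100 CPM, 4 without a Malat1 UMI, and 22 with equal weight for each barcode. The floors were applied again under each alternative, so sets with fewer UMIs compare fewer genes. How many genes each alternative compared was not recorded. A lower count is therefore not a measure of how many differences were lost. The share of kept barcodes was 0.944% (WT) and 0.879% (KO) at 20%, 8.01% and 5.28% from 200 genes, 1.16% and 1.68% from 1000 genes, and 3.63% and 2.64% without the 5 markers. The Myh4 type made 98.8% and 100% at 20%, and 91.9% in the WT-labelled library with a type limit of 60%. Hspb7 reversed to 0.51 at 20%. Of 464 recomputed ratios of 29 genes, 406 kept their direction and side of 2-fold and stayed within their counting interval. Some of these could not move: a changed CPM floor leaves a gene's ratio as it is. Lifting the mitochondrial cap kept the same 443 and 680 barcodes. The 406 is therefore not a measure of how stable the ratios are. At a muscle-gene share of 40% no barcode was left, so that alternative gave no value. No paired analysis was possible because there is 1 library for each genotype. The cause of these changes was not tested.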

Other observations

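Clock-controlled genes were chosen after their values were seen. Dbp, a transcription factor driven by the circadian clock, had 65.2 CPM in the WT-labelled library and 25.6 CPM in the KO-labelled library in myofibre-derived barcodes (log2 ratio -1.31, 95% interval -1.90 to -0.80). Its log2 ratio was -1.77 in all other kept barcodes, -1.91 in endothelial and -1.98 in progenitor barcodes. Bhlhe41, a repressor of the clock, had -0.77 in myofibre-derived barcodes (81.8 and 47.4 CPM) and -1.05 in the others. Nr1d1 had -0.23 and -0.58, and Arntl, which peaks opposite to Dbp, 0.22 and 0.39. Nfil3, a repressor of the same target sites as Dbp, had 1.498 and 0.13. The times at which the muscles were taken are not in the labels used here.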
